A study of Rattus norvegicus with 83 samples.

Results

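Rat offspring whose dams had been dosed with amitrole were compared with offspring of vehicle-dosed dams at gestational day 21 (GD21), with both amitrole doses pooled and each dose also given alone. The amitrole groups were Ami25 (25 mg/kg body weight per day, 6 libraries) and Ami50 (50 mg/kg body weight per day, 6 libraries), and the vehicle group received corn oil (6 libraries). These 18 libraries were chosen by their labels, stage GD21 and compound amitrole or vehicle, among 83 libraries of the study. The other 12 GD21 libraries, of methimazole at 8 and 16 mg/kg per day, shared the model fit. The dams were Crl:CD(SD) rats, an outbred Sprague-Dawley stock, gavaged from GD7. All GD21 fetuses had thus been exposed in the womb, and the vehicle fetuses to corn oil by the same route. Each library is RNA of 1 labelled sample. The labels do not say which samples were littermates, so the p-values below measure the spread between these samples, and litter effects cannot be told apart from treatment effects.

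Amitrole is a triazole herbicide that blocks the making of thyroid hormone, and it is also a classical inhibitor of catalase, the peroxisomal enzyme that breaks down hydrogen peroxide. Thyroid hormone acts through the nuclear receptors encoded by Thra and Thrb, which pair with retinoid X receptors such as Rxrb, and Klf9, Hr and Dio1 are among its well-known target genes. The fetal rat thyroid begins to make hormone only late in gestation, so that the fetus depends in part on hormone of the dam.

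The samples carry the label testis, and the transcripts went against it. The adrenal cortex markers Cyp21a1, Cyp11b1, Cyp11a1, Star, Mc2r and Nr5a1 together made up 24821 to 39950 CPM (counts scaled to a library total of 1000000) in the 18 libraries. Adrenal medulla markers such as Th, Dbh and Pnmt together made up 896 to 1414 CPM. The testis markers other than Inha, among them Amh, Insl3, Ddx4 and Sycp3, together had 176 counts of 17188663, and Dmrt1 and Hsd17b3 had none. Inha is also made by the adrenal cortex. The groups are therefore called by stage and dose alone. Every library had at least 43.3 CPM of the Y-linked gene Eif2s3y, while Ddx3y, the other Y-linked marker in the table, had 1 count in all 18. Alb, the albumin gene of hepatocytes, stood at 200 CPM or more in 1 Ami25, 2 Ami50 and 3 vehicle libraries.

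Total counts were lower in amitrole. They ranged from 495369 to 1214081 in the amitrole libraries (mean 853340 ± 198950, SD, n = 12) and from 945689 to 1627114 in the vehicle libraries (mean 1158100 ± 241600, SD, n = 6). An exact two-sided permutation test over all 18564 splits gave p = 0.00846, adjusted to 0.0454 over the 6 library measures by Benjamini-Hochberg. The number of genes with a count averaged 10082 ± 453 in amitrole and 10657 ± 329 in vehicle (exact permutation p = 0.0151, adjusted 0.0454). Without the libraries at 200 CPM of Alb or more both adjusted values were 0.102. Within the libraries numbered 41 to 56 (6 amitrole, 4 vehicle) total counts gave an adjusted p of 0.1905 by the same exact test, and within those numbered 61 to 90 (6 amitrole, 2 vehicle) 0.214. The numbers are those of the labels, which do not say what the 2 ranges stand for. The percentages of globin counts, of embryonic globin and of the 10 top genes, and Alb, did not pass this test. Because amitrole libraries were shallower, the leading genes, the DESeq2 calls and several of the lists below are also given with the log2 total count as a term of the model.

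No gene was called for amitrole against vehicle. Of 6236 genes tested, edgeR's quasi-likelihood test called 0 with Benjamini-Hochberg adjustment at 0.05 (0% of genes in either direction), and the lowest adjusted p was 0.167. At an unadjusted p under 0.05, 333 genes were higher in amitrole (5.34%) and 287 lower (4.6%), 620 in all (9.94%). From uniform p-values 312 would be expected. Genes that vary together widen the spread of such a count, and the excess was not tested. With the log2 total count as a term 188 were higher and 163 lower of 6236. In numbers 41 to 56 it was 124 and 169 of 7035, and in numbers 61 to 90 457 and 591 of 6524. DESeq2's Wald test called 21 genes higher (0.989%) and 1 lower (0.0471%) of the 2124 left by its own filter, and limma-voom called 0. The doses alone gave the same count: edgeR called 0 genes for Ami25 (lowest adjusted p 0.384) and 0 for Ami50 (lowest adjusted p 0.156). At an unadjusted p under 0.05 Ami25 had 297 genes higher (4.76%) and 282 lower (4.52%), 579 in all (9.28%), and Ami50 269 higher (4.31%) and 162 lower (2.6%), 431 in all (6.91%). DESeq2 called 0 genes for Ami25 and 22 for Ami50, all higher. Limma-voom called 0 for each dose.

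The size of change that this comparison could show is limited by the spread between libraries. The median log2 fold change over all genes tested was -0.01, the 5th and the 95th percentiles were -0.51 and 0.41, and the median half-width of a gene's 95% interval was 0.394. In data simulated from these libraries, with 200 of 6236 genes changed, the pooled comparison recovered 31% of genes changed 1.5-fold, 75.5% of those changed 2-fold and 97% of those changed 3-fold. Ami25 alone recovered 64.5% and Ami50 alone 66.5% of genes changed 2-fold. The simulation drew each gene independently, without differences that many genes share, such as those of liver RNA or number range. Its shares need not hold for the real libraries, nor where fewer than 200 genes change. In the real pooled comparison 71 genes had a fitted difference of 2-fold or more, and 0 were called. For no gene did all 12 amitrole libraries lie above, or all 12 below, the 6 vehicle libraries (0% of genes each way).

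The genes of lowest p among those higher in amitrole were Rtn3, Slbp, H2bc12, Ndufa10, Snx8, Dcaf6, Qrich1, Atp6ap1, Copg1 and Cemip2, and none passed edgeR's test (adjusted p 0.167 to 0.185). Rtn3, a reticulon of the endoplasmic reticulum membrane, lay between 117 and 179.7 CPM in Ami25 (median 142), between 126 and 187 CPM in Ami50 (median 148) and between 67 and 124 CPM in vehicle (median 97.1). All 12 amitrole libraries exceeded the vehicle mean and 10 exceeded the highest vehicle library. The log2 fold change was 0.62 ± 0.13 (SE, 95% interval 0.35 to 0.90), with an edgeR adjusted p of 0.167 and a DESeq2 adjusted p of 0.011.

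Slbp and H2bc12 both belong to histone supply: Slbp binds the stem-loop at the end of replication-dependent histone mRNAs, and H2bc12 encodes a histone H2B. Slbp lay between 54.2 and 94.5 CPM in Ami25 (median 62.6), between 55.4 and 95.8 CPM in Ami50 (median 78.5) and between 39.3 and 60.3 CPM in vehicle (median 49.2), a log2 fold change of 0.57 ± 0.13 (edgeR adjusted p 0.167, DESeq2 0.0138). H2bc12 averaged 24.2 ± 5.24 CPM in amitrole and 14.6 ± 3.22 CPM in vehicle, with a log2 fold change of 0.74 ± 0.18 (edgeR adjusted p 0.185). In both genes the lowest amitrole libraries lay inside the vehicle range.

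Ndufa10, a subunit of complex I of the mitochondrial respiratory chain, lay between 338 and 512 CPM in Ami25 (median 441), between 253 and 612 CPM in Ami50 (median 456) and between 231 and 311 CPM in vehicle (median 273) (log2 fold change 0.69 ± 0.17, the same 0.69 in each dose). The lowest Ami50 library, at 253 CPM, lay inside the vehicle range of 231 to 311 CPM. The largest fitted differences among the 10 were those of Cemip2, a cell-surface protein linked to hyaluronan, and Qrich1. Cemip2 lay between 216 and 375 CPM in Ami25 (median 282), between 236 and 817 CPM in Ami50 (median 299.9) and between 111 and 241 CPM in vehicle (median 165), a log2 fold change of 1.08 ± 0.27. The top of the Ami50 range stood well apart from its median. Qrich1 lay between 142 and 271 CPM in Ami25 (median 217), between 154 and 470.4 CPM in Ami50 (median 295) and between 89.7 and 179 CPM in vehicle (median 111) (log2 fold change 1.03 ± 0.25). Dcaf6, a substrate receptor of the CUL4 ubiquitin ligase, averaged 157 ± 52.7 CPM in amitrole and 79.5 ± 18.5 CPM in vehicle (log2 fold change 0.99 ± 0.24).

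The other 3 genes of this set serve membrane traffic. Copg1, a coat subunit of COPI vesicles, averaged 31.9 ± 8.13 CPM in amitrole and 20.4 ± 3.46 CPM in vehicle, Snx8, an endosomal sorting nexin, 30.6 ± 8.21 CPM in amitrole and 16.7 ± 3.87 CPM in vehicle, and Atp6ap1, an accessory subunit of the vacuolar proton pump, 428 ± 79.2 CPM in amitrole and 314 ± 36.8 CPM in vehicle. Their log2 fold changes were 0.64 ± 0.17, 0.89 ± 0.22 and 0.46 ± 0.12. In Snx8 and Atp6ap1, 11 of the 12 amitrole libraries exceeded the highest vehicle library.

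**Figure D1:**
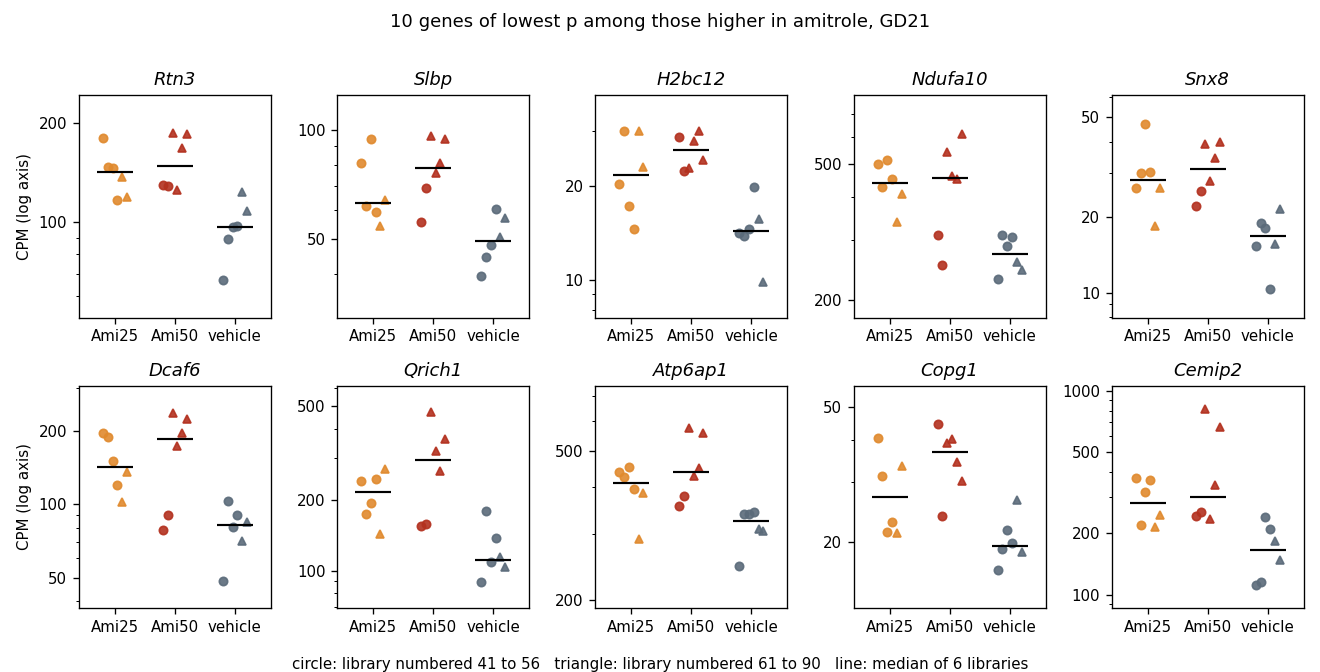
CPM on a log axis in each GD21 library for the 10 genes of lowest p among those higher in amitrole, with Ami25, Ami50 and vehicle from left to right. Points are libraries, circles for numbers 41 to 56 and triangles for 61 to 90, and lines are medians of 6 libraries. The amitrole medians lie above the vehicle median in each of the 10 genes, the ranges overlap, and the Ami50 libraries numbered 55 and 56 are the lowest of the 6 Ami50 libraries in Dcaf6, Ndufa10 and Qrich1.

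DESeq2 called 14 more genes higher that are not among these 10, chosen here after their values were seen: Stk11, Tango2, Hmgb1, Me2, Cap1, Pecam1, Plekhb2, Ranbp1, Gstt2, Rbbp4, Dnajb12, Ccn1, Tsc22d3 and Nfe2l1. Stk11, the kinase LKB1 upstream of AMPK, averaged 312 ± 91.3 CPM in amitrole and 174 ± 41.4 CPM in vehicle (log2 fold change 0.85 ± 0.22, edgeR adjusted p 0.185, DESeq2 0.0147). Tsc22d3, a glucocorticoid-induced leucine zipper gene, averaged 138 ± 80.4 CPM in amitrole and 64.5 ± 10.5 CPM in vehicle (log2 fold change 1.10 ± 0.32, edgeR 0.261, DESeq2 0.0286). Pecam1, an endothelial adhesion molecule that platelets and leukocytes also carry, averaged 145 ± 43.7 CPM in amitrole and 88.2 ± 20.2 CPM in vehicle, and Gstt2, a theta-class glutathione transferase, 718 ± 329 CPM in amitrole and 408 ± 96.5 CPM in vehicle. The 22 genes of the DESeq2 call were chosen on all these libraries, so their direction within subsets of them is no independent evidence. Their median log2 fold change in edgeR was 0.725 with all libraries and 0.48 with the total count term. It was 0.819 without the libraries at 200 CPM of Alb or more, 0.437 in numbers 41 to 56 and 0.767 in numbers 61 to 90. In numbers 41 to 56, 14 of the 22 had an unadjusted p under 0.05, with a lowest adjusted p of 0.999, and in 61 to 90, 19 had.

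The genes of lowest p among those lower in amitrole were Shc1, Zfp36l1, Ddx21, Wbp1, Eif2ak4, Myo10, Pno1, Vps26b, Mxra8 and Ggnbp2, and none passed edgeR's test (adjusted p 0.167 to 0.262). Shc1, an adaptor of receptor tyrosine kinases, had the largest fitted difference, and it rested on 2 vehicle libraries. Vehicle replicates 41 and 42 had 189 and 277 CPM, and the other 4 vehicle libraries lay between 14.6 and 23.6 CPM. The amitrole libraries lay between 7.83 and 22.2 CPM. The fitted log2 fold change of -2.63 ± 0.58 became -0.34 (edgeR adjusted p 0.888) without these 2 libraries, a fit added after the values were seen.

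Zfp36l1, which binds AU-rich mRNAs and speeds their decay, was the 1 gene that DESeq2 called lower. It lay between 56.5 and 117 CPM in Ami25 (median 74.4), between 68.2 and 115 CPM in Ami50 (median 78.3) and between 91.3 and 169 CPM in vehicle (median 130.0), and 9 of 12 amitrole libraries lay below the lowest vehicle library. The log2 fold change was -0.62 ± 0.15 (95% interval -0.91 to -0.32), with an edgeR adjusted p of 0.185 and a DESeq2 adjusted p of 0.0168.

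Ddx21 and Pno1 serve ribosome biogenesis, as a nucleolar RNA helicase and an assembly factor of the small subunit. Ddx21 averaged 14.8 ± 7.28 CPM in amitrole and 31.4 ± 11.1 CPM in vehicle (log2 fold change -1.07 ± 0.28, edgeR adjusted p 0.185) and Pno1 14.6 ± 5.17 CPM in amitrole and 22.6 ± 5.45 CPM in vehicle (log2 fold change -0.66 ± 0.19). Eif2ak4, the amino-acid-sensing kinase GCN2, averaged 15.5 ± 5.28 CPM in amitrole and 25.2 ± 3.39 CPM in vehicle (log2 fold change -0.67 ± 0.18). Myo10, the myosin of filopodia, averaged 17.4 ± 7.03 CPM in amitrole and 31.5 ± 9.65 CPM in vehicle (log2 fold change -0.81 ± 0.22), and Vps26b, a retromer subunit, 21.5 ± 10.6 CPM in amitrole and 49.3 ± 29 CPM in vehicle (log2 fold change -1.19 ± 0.34). For Ddx21, Eif2ak4 and Wbp1, 10 of 12 amitrole libraries lay below the lowest vehicle library. Wbp1, a binder of WW domains, Mxra8 and Ggnbp2 had log2 fold changes of -0.65 ± 0.17, -0.69 ± 0.21 and -0.56 ± 0.17.

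**Figure D2:**
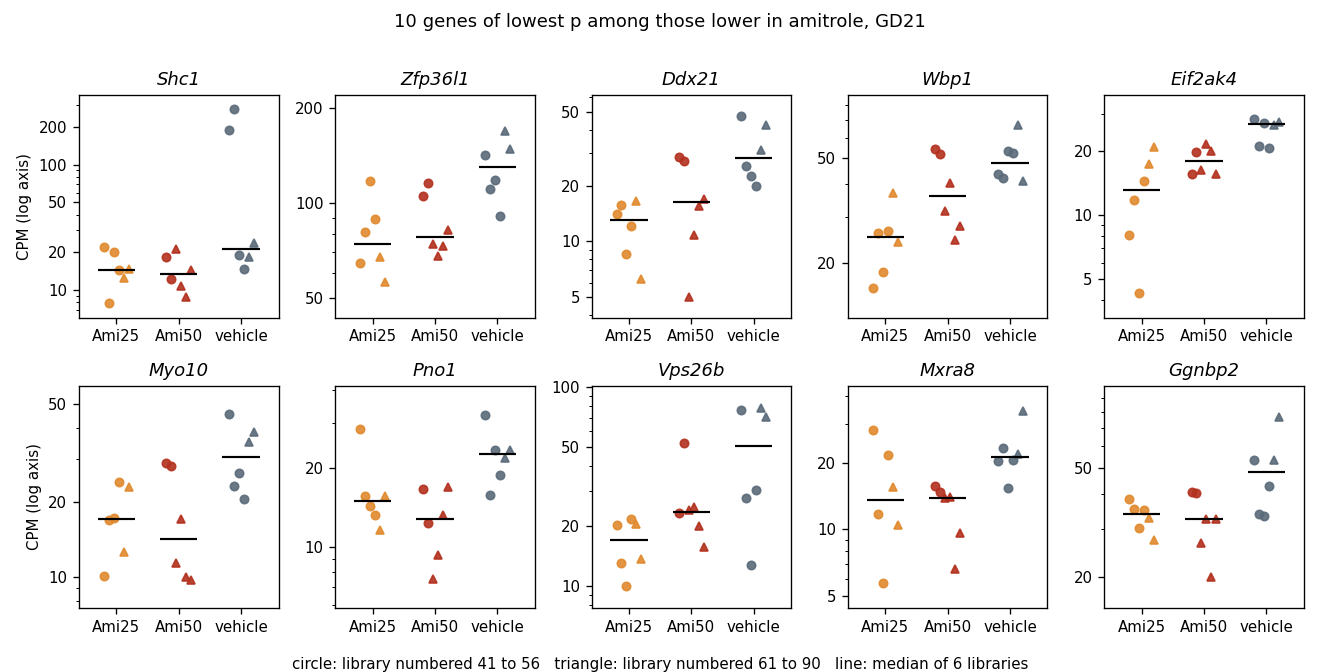
CPM on a log axis in each GD21 library for the 10 genes of lowest p among those lower in amitrole, with Ami25, Ami50 and vehicle from left to right. Points are libraries, circles for numbers 41 to 56 and triangles for 61 to 90, and lines are medians of 6 libraries. The amitrole medians lie below the vehicle median in each panel, and in Shc1 vehicle libraries 41 and 42, at 189 and 277 CPM, lie far above the other 16.

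The leading genes, chosen by their p without depth in the model, were fitted again with it. They were chosen on these same libraries, so a kept sign or low p in the refit is no independent evidence. With the log2 total count as a term, all 10 higher and all 10 lower genes kept their sign and an unadjusted p under 0.05, with median log2 fold changes of 0.6 against 0.717 without the term for the higher genes, and of -0.558 against -0.682 for the lower ones. The lowest adjusted p among all 20 was then 0.847. At an unadjusted p under 0.05 that fit held 188 genes higher and 163 lower of 6236.

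Among the lists, that of macrophage and other leukocyte genes had the highest median in amitrole. Of 49 listed genes, 48 were among the symbols counted and 28 were tested, the rest of the 48 being too low. Of these 28, 27 had a positive log2 fold change, 16 were higher at an unadjusted p under 0.05 (against 5.34% of all genes) and 1 lower, and none was called. Their median log2 fold change was 0.531, against -0.01 over all genes. The list was made with earlier results of these data known. In bulk RNA, more cells of a type and more RNA per cell cannot be told apart.

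Markers of tissue macrophages stood among the highest. Cd163, the scavenger receptor for haptoglobin-bound hemoglobin, lay between 36.5 and 64.9 CPM in Ami25 (median 47.1), between 16.5 and 87 CPM in Ami50 (median 65.3) and between 15.4 and 44.9 CPM in vehicle (median 24) (log2 fold change 0.97 ± 0.31, edgeR adjusted p 0.297). Csf1r, the receptor of the macrophage growth factor CSF1, lay between 21.5 and 51.3 CPM in Ami25 (median 30.7), between 14.8 and 55.8 CPM in Ami50 (median 32.2) and between 12.1 and 31.2 CPM in vehicle (median 17.9) (log2 fold change 0.73 ± 0.27, edgeR adjusted p 0.412). Both ranges overlapped vehicle, and 11 of 12 amitrole libraries lay above the vehicle mean in each. Ctss, a lysosomal protease of antigen-presenting cells, averaged 68.6 ± 24.3 CPM in amitrole and 42.7 ± 9.52 CPM in vehicle (log2 fold change 0.71 ± 0.21). Fcer1g, the signalling chain of Fc receptors, averaged 92.6 ± 27.6 CPM in amitrole and 58.6 ± 14.1 CPM in vehicle (log2 fold change 0.69 ± 0.22), with all 12 amitrole libraries above the vehicle mean. Lyz2, the lysozyme of myeloid cells, averaged 127 ± 36 CPM in amitrole and 87.2 ± 18.8 CPM in vehicle (log2 fold change 0.57 ± 0.20).

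Other members had smaller differences. The mannose receptor gene Mrc1 averaged 213 ± 80.9 CPM in amitrole and 149 ± 43.3 CPM in vehicle (log2 fold change 0.52 ± 0.28, unadjusted p 0.0723), and C1qa of complement 24.6 ± 11.9 CPM in amitrole and 22.7 ± 7 CPM in vehicle (log2 fold change 0.15 ± 0.28, unadjusted p 0.594). Apoe, which adrenocortical cells also make, was the 1 member lower at an unadjusted p under 0.05, at 241 against 382 CPM in amitrole and vehicle (log2 fold change -0.64). By dose, 14 members were higher at an unadjusted p under 0.05 in Ami25 (median 0.457, against 4.76% of all genes) and 13 in Ami50 (median 0.591, against 4.31%). For Ami50 against Ami25, 0 were higher and 1 lower, with a median of 0.0287. The 2 doses share the vehicle libraries, so their values are not independent.

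**Figure D3:**
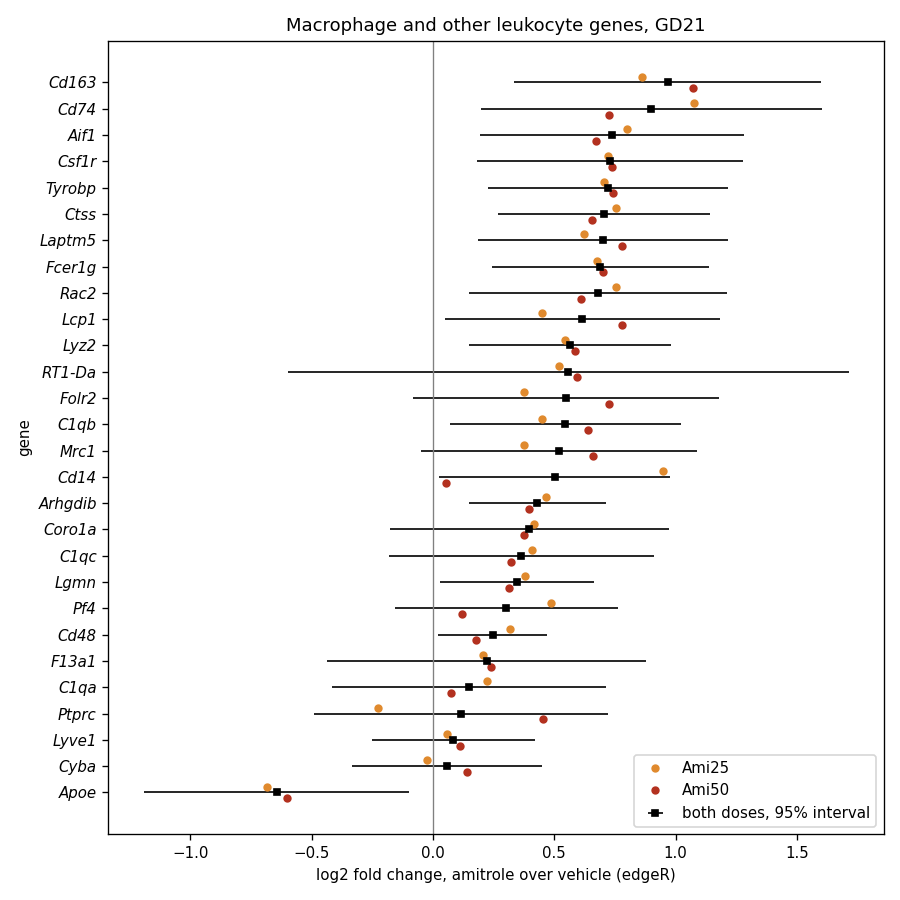
Log2 fold change of amitrole over vehicle for the 28 leukocyte genes tested, one gene a row. Squares with bars are both doses with the 95% interval, and circles are each dose. For 16 genes the interval lies above 0, for Apoe below it, and 25 genes have both doses above 0.

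The leukocyte count was not even across libraries. The 28 genes summed to between 1422 and 2784 (median 1576) CPM in Ami25, between 1526 and 2334 (median 1824) in Ami50 and between 1297 and 1776 (median 1536) in vehicle. In methimazole they lay between 1254 and 2201 (median 1646) CPM. The highest sum was that of Ami25 replicate 81, which also had 1843 CPM of Alb. Without the 6 libraries at 200 CPM of Alb or more, 4 of 27 tested genes were higher at an unadjusted p under 0.05, with a median of 0.322 (3.74% of all genes were higher in that fit). Within the libraries numbered 41 to 56 the count was 4 of 27 with a median of 0.279 (1.76% of all genes), and within 61 to 90 it was 14 of 29 with a median of 0.777 (7%). With the log2 total count as a term it was 12 of 28 with a median of 0.515 (3.01%). Without vehicle replicates 41 and 42 it was 8 of 29 with a median of 0.449 (196 of 6555 genes were higher in that fit). The list's medians stayed above 0 in each of these fits.

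The ribosomal protein genes lay on the other side. Of 78 tested, 73 had a negative log2 fold change, 13 were lower at an unadjusted p under 0.05 (against 4.6% of all genes), 0 were higher, and the median was -0.202. Rpl7, Rpl4 and Rpl37a had the lowest p, with log2 fold changes of -0.22 ± 0.08, -0.22 ± 0.08 and -0.31 ± 0.12. These genes made up between 14.2 and 19.6 (median 16.5) percent of counts in Ami25, between 15.9 and 20.7 (median 16.2) in Ami50 and between 16.4 and 23.1 (median 18.5) in vehicle. With the log2 total count as a term the count was 0 (2.61% of all genes were lower in that fit) and the median -0.00476. Total counts differed between the groups, so this term can also take up a difference between them. With every library thinned at random to the lowest total, the count was 13 of 78 and the median -0.211. Without the libraries at 200 CPM of Alb or more it was 2 of 78 with a median of -0.216 (3.95% of all genes). Within numbers 41 to 56 it was 1 of 78 with a median of -0.105 (2.4%). Within 61 to 90, 0 were lower and 3 higher of 78, with a median of -0.191 (9.06% and 7%). Leaving out single libraries moved the count between 1 (without vehicle replicate 41, the deepest library) and 40 (without Ami50 replicate 55).

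**Figure D4:**
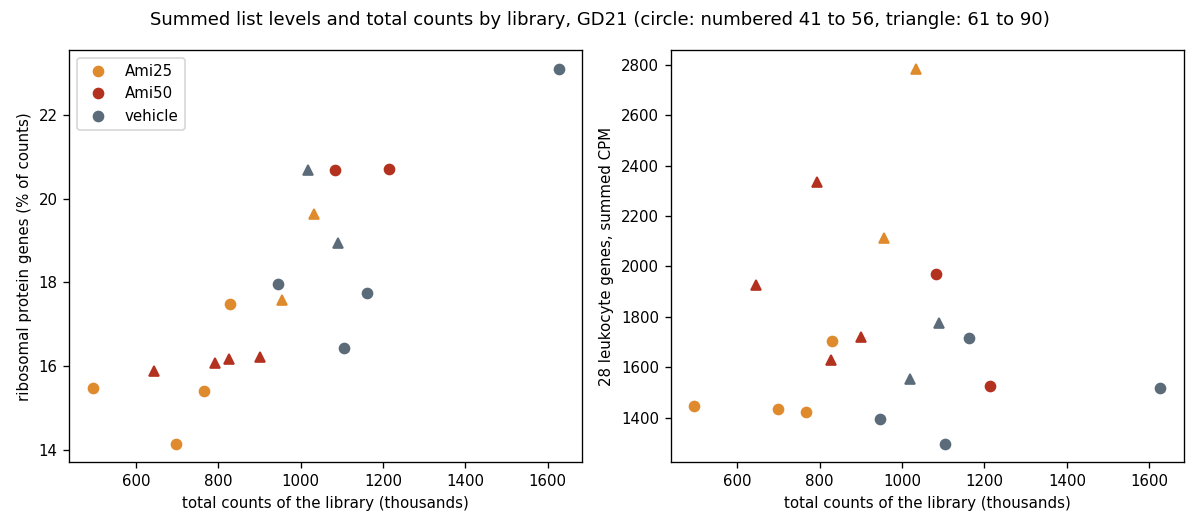
Ribosomal protein genes as a percentage of counts (left) and the summed CPM of the 28 leukocyte genes (right) against the total counts of each library. Points are libraries of Ami25, Ami50 and vehicle. The ribosomal percentage is highest in the deepest library (23.1% in vehicle replicate 41), and the leukocyte sum is highest in Ami25 replicate 81.

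Genes of thyroid hormone action were mostly too low to test. Of 23 genes of receptors, transporters and deiodinases 8 were tested, of which 0 were higher and 3 lower at an unadjusted p under 0.05, with a median of -0.348 and none called (4.6% of all genes were lower). The 3 lower became 1 of 8 with the total count term (2.61% of all genes) and 0 of 8 without the libraries at 200 CPM of Alb or more (3.95%). They were 1 of 8 in numbers 41 to 56 (2.4%) and 3 of 8 in numbers 61 to 90 (9.06%). The medians of these fits ran from -0.442 to -0.261. Crym, a cytosolic binder of thyroid hormone, averaged 7.76 ± 5.69 CPM in amitrole and 13.8 ± 4.48 CPM in vehicle (log2 fold change -0.86 ± 0.33, unadjusted p 0.0148). Rxrb averaged 7.68 ± 5.53 CPM in amitrole and 14.3 ± 5.47 CPM in vehicle (log2 fold change -0.78 ± 0.35) and Thra 6.1 ± 2.96 CPM in amitrole and 10 ± 2.8 CPM in vehicle (log2 fold change -0.61 ± 0.29). These genes rest on few counts per library, and the ranges overlapped. Thrb, Dio1, Dio3, Hr and Tg were too low to test, at means of 0.287 against 1.12 CPM for Thrb and 0.568 against 0.729 for Dio1 in amitrole and vehicle.

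Of 22 thyroid hormone response genes 6 were tested, 0 higher and 2 lower at an unadjusted p under 0.05, with a median of -0.144. With the total count term 1 of 6 was lower (2.61% of all genes), and without the libraries at 200 CPM of Alb or more 1 of 8 (3.95%), with a median of 0.0507. The 2 were Atp2a2, the calcium pump SERCA2, with 31.8 ± 9.14 CPM in amitrole and 40.6 ± 11.4 CPM in vehicle (log2 fold change -0.36 ± 0.16), and Me1, cytosolic malic enzyme, with 43.3 ± 26.9 CPM in amitrole and 66.7 ± 26.5 CPM in vehicle (log2 fold change -0.70 ± 0.33). By dose their values differed, though the test of Ami50 against Ami25 called neither gene, with log2 fold changes of -0.67 in Ami25 and -0.06 in Ami50 for Atp2a2 and of -1.19 in Ami25 and -0.21 in Ami50 for Me1. Klf9 averaged 8.03 ± 4.35 CPM in amitrole and 11.8 ± 5.49 CPM in vehicle (log2 fold change -0.54 ± 0.29, unadjusted p 0.0675).

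Cat, the gene of the enzyme that amitrole inhibits, showed no difference past the test. It lay between 129.7 and 184 CPM in Ami25 (median 151), between 111 and 184 CPM in Ami50 (median 132) and between 102 and 165 CPM in vehicle (median 142). The log2 fold change was 0.12 ± 0.13 (95% interval -0.14 to 0.38, edgeR adjusted p 0.752), an interval that leaves out a 1.5-fold difference either way. Of 28 tested genes of catalase and peroxide handling, 3 were higher at an unadjusted p under 0.05 and 0 lower, with a median of -0.0187 and none called (5.34% of all genes were higher). Without the libraries at 200 CPM of Alb or more 1 of 29 was higher (3.74% of all genes). Within numbers 41 to 56, 0 were higher and 1 lower of 30 (1.76% and 2.4%). Within 61 to 90, 5 were higher and 1 lower of 28 (7% and 9.06%). In all libraries the 3 were Nqo1, a quinone reductase and NRF2 target (20.9 ± 9.42 CPM in amitrole and 12.2 ± 3.71 CPM in vehicle, log2 fold change 0.77 ± 0.25), Hmox1, inducible heme oxygenase (47.9 ± 21.8 CPM in amitrole and 29.1 ± 5.66 CPM in vehicle, log2 fold change 0.76 ± 0.33), and Gss, glutathione synthetase (33.7 ± 10.7 CPM in amitrole and 25.6 ± 6.94 CPM in vehicle, log2 fold change 0.37 ± 0.18). Of 27 peroxisome genes 0 were higher and 1 lower at that p, with a median of -0.00515. That gene was Eci2, of peroxisomal fatty acid oxidation (104 ± 38.7 CPM in amitrole and 139 ± 13.4 CPM in vehicle, log2 fold change -0.38 ± 0.18).

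Xenobiotic enzymes held 4 of 29 genes higher at an unadjusted p under 0.05 and 0 lower (against 5.34% and 4.6% of all genes), with a median of -0.0375. Within the libraries numbered 41 to 56 the list leaned the other way, with 1 higher and 6 lower of 32 (1.76% and 2.4% of all genes) and a median of -0.195, and within 61 to 90 it had 6 higher and 2 lower of 32 (7% and 9.06%). Gstt2 (log2 fold change 0.84 ± 0.23), Abcc3, an efflux pump of conjugates (50.3 ± 18 CPM in amitrole and 30.3 ± 9.22 CPM in vehicle, 0.73 ± 0.21), and Nqo1 were the 3 of lowest p. Of 13 ferritin and iron genes, 3 were higher at that p and 0 lower, with a median of 0.129 (1 higher and 1 lower of 15 in numbers 41 to 56), among them Ftl1, the ferritin light chain (4643 ± 686 CPM in amitrole and 3891 ± 518 CPM in vehicle, 0.27 ± 0.11), and Slc40a1, the iron exporter ferroportin (35.8 ± 14.4 CPM in amitrole and 24.3 ± 8.16 CPM in vehicle, 0.59 ± 0.26).

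Steroid synthesis, the chief work of adrenocortical cells, had 0 of 20 genes at an unadjusted p under 0.05 in either direction. Their median was 0.0566. In Ami25 alone 2 of the 20 were higher at that p (4.76% of all genes) and 0 lower, and in Ami50 0 in either direction. Within the libraries numbered 41 to 56, 0 of 21 were higher or lower, with a median of -0.0393. Within 61 to 90, 3 were higher and 2 lower of 21, with a median of 0.102 (7% and 9.06% of all genes). Cyp11a1, which cleaves the side chain of cholesterol, averaged 15776 ± 2972 CPM in amitrole and 13554 ± 2203 CPM in vehicle (log2 fold change 0.23 ± 0.14). Star, which brings cholesterol into mitochondria, averaged 1039.6 ± 187 CPM in amitrole and 983 ± 57.5 CPM in vehicle (0.10 ± 0.13), Cyp21a1, the 21-hydroxylase, 8532 ± 1044 CPM in amitrole and 9512 ± 1122 CPM in vehicle (-0.15 ± 0.10), and Cyp11b1, the 11-beta-hydroxylase, 5435 ± 1727 CPM in amitrole and 4778 ± 1697 CPM in vehicle (0.19 ± 0.22). The 95% interval was -0.16 to 0.36 for Star, -0.36 to 0.07 for Cyp21a1 and -0.25 to 0.64 for Cyp11b1, so that a 1.5-fold difference of Star or Cyp21a1 lay outside it. Mc2r, the ACTH receptor, averaged 26 ± 10.4 CPM in amitrole and 25.7 ± 5.68 CPM in vehicle (0.05 ± 0.24).

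The chromaffin genes of the medulla held 1 of 16 higher at an unadjusted p under 0.05, Cyb561 of secretory granules (34.9 ± 13.9 CPM in amitrole and 24.9 ± 2.66 CPM in vehicle, 0.47 ± 0.20), and 0 lower, with a median of 0.101. Th, Dbh and Pnmt of catecholamine synthesis had log2 fold changes of 0.09 ± 0.20, 0.26 ± 0.13 and 0.13 ± 0.11, and none passed an unadjusted p of 0.05. With the log2 total count as a term 0 of 16 were higher and 1 lower at that p (3.01% and 2.61% of all genes). In Ami25 alone 4 chromaffin genes were higher at that p (4.76% of all genes) and in Ami50 0 (4.31%). Within the libraries numbered 41 to 56, 2 were higher and 0 lower of 19, with a median of 0.228 (1.76% and 2.4% of all genes). Within 61 to 90, 1 was higher and 2 lower of 18, with a median of -0.222 (7% and 9.06%). Ami25 has 4 libraries numbered 41 to 56 and Ami50 has 2, so the doses also differ in number range. For Ami50 against Ami25, 2 were lower and 0 higher, with none called.

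Of 41 proliferation genes, 6 were higher and 1 lower at an unadjusted p under 0.05 (against 5.34% and 4.6% of all genes), with a median of 0.11. Within the libraries numbered 41 to 56, 0 were higher and 1 lower of 42 (1.76% and 2.4% of all genes). Within 61 to 90, 5 were higher and 5 lower of 41 (7% and 9.06%). Mcm4, of the replicative helicase, averaged 204 ± 47.4 CPM in amitrole and 147 ± 30.3 CPM in vehicle (0.48 ± 0.15) and Cdc20, of the anaphase-promoting complex, 89.6 ± 25.2 CPM in amitrole and 69.3 ± 6.29 CPM in vehicle (0.37 ± 0.16). Mki67 and Top2a, also of dividing cells, had values of the other sign, -0.20 ± 0.21 and -0.57 ± 0.32, with unadjusted p of 0.363 and 0.088. With the log2 total count as a term, 1 of the 41 was higher at that p (3.01% of all genes).

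The 30 hepatocyte genes tested all had negative log2 fold changes with a median of -1.27, and none passed an unadjusted p of 0.05. Alb, their chief marker, lay between 18.1 and 1843 CPM in Ami25 (median 37.7), between 14.5 and 4394 CPM in Ami50 (median 33.6) and between 17.4 and 5319 CPM in vehicle (median 228). Without the 6 libraries at 200 CPM of Alb or more 10 hepatocyte genes were tested, with a median of 0.0548. Within the libraries numbered 41 to 56, 27 of 34 were lower at an unadjusted p under 0.05 (2.4% of all genes) and none was called. The part of this RNA in other differences was tested only by leaving these libraries out. Of 26 red cell genes 2 were higher at an unadjusted p under 0.05 (5.34% of all genes), the embryonic globin gene Hbz (0.98 ± 0.44) and Hba-a3 (0.47 ± 0.23), 0 were lower, and the median was 0.0835. Within the libraries numbered 41 to 56, 0 of 31 were higher or lower at that p, with a median of -0.0686. Within 61 to 90, 9 were higher and 2 lower of 26, with a median of 0.304 (7% and 9.06% of all genes). Without the 6 libraries at 200 CPM of Alb or more 2 of 26 were higher, with a median of 0.256 (3.74%). With the log2 total count as a term 0 of 26 were higher and 1 lower (3.01% and 2.61%). Hbb averaged 11445 ± 2278 CPM in amitrole and 11498 ± 2445 CPM in vehicle (0.01 ± 0.17). Of 22 imprinted and fetal growth genes, 1 was lower (Peg12, 4.24 ± 2.96 CPM in amitrole and 7.58 ± 4.22 CPM in vehicle, -0.90 ± 0.37) and 0 were higher, with a median of -0.175 (5.34% of all genes were higher and 4.6% lower). The number ranges differed: within 61 to 90, 1 was higher and 10 lower of 22 with a median of -0.577 (7% and 9.06% of all genes), and within 41 to 56, 2 were higher and 0 lower of 24 with a median of -0.0266 (1.76% and 2.4%). With the log2 total count as a term 0 imprinted and fetal growth genes were higher and 2 lower of 22, with a median of -0.0898 (3.01% and 2.61%). Igf2 and H19 had log2 fold changes of -0.43 ± 0.36 and -0.63 ± 0.52.

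**Figure D5:**
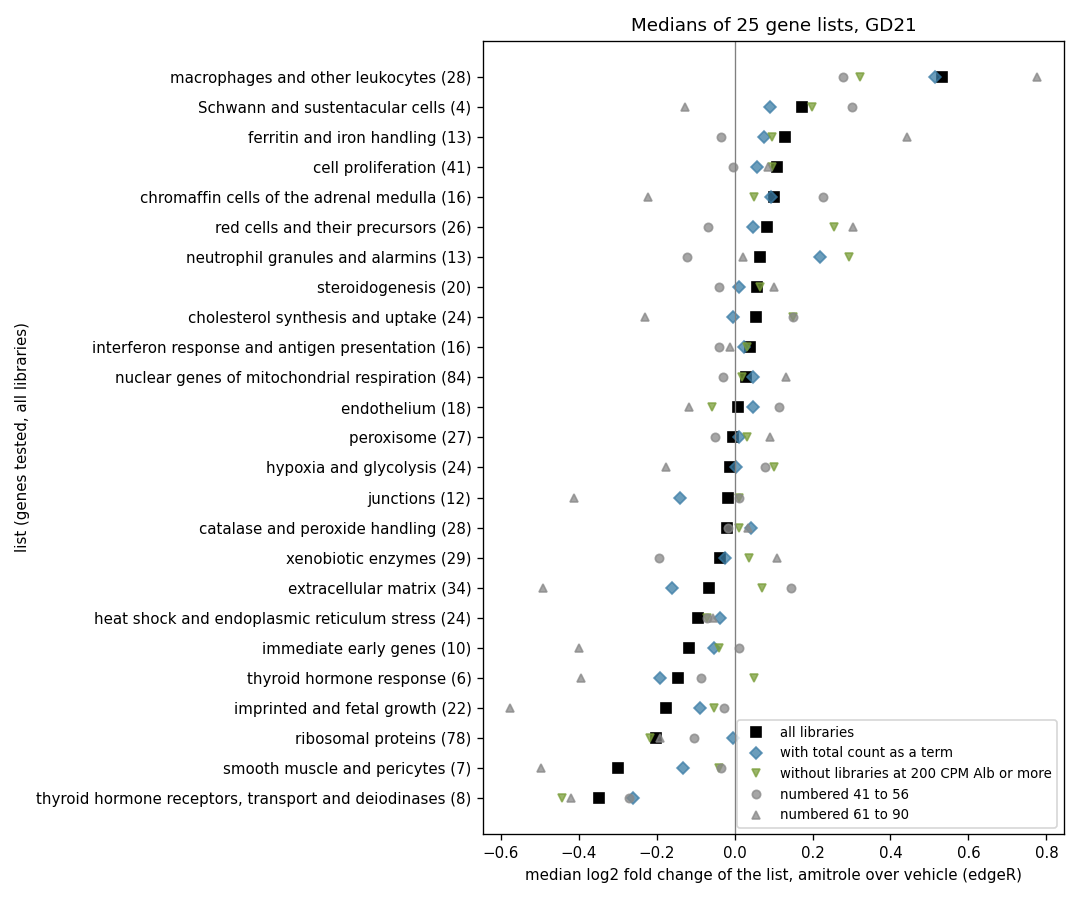
Median log2 fold change of amitrole over vehicle for 25 gene lists, one a row, with the number of genes tested in brackets, leaving out the hepatocyte, kidney and testis lists. Squares are all libraries, and the other symbols are the fits with total count as a term, without libraries at 200 CPM of Alb or more, and within each number range. Among those shown, the leukocyte list has the highest median in 4 of the 5 fits and lies above 0 in all 5, and the ribosomal list lies near 0 with the total count term.

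No gene passed the test of a difference between the 2 doses. For Ami50 against Ami25 edgeR, DESeq2 and limma-voom each called 0 of the genes tested, edgeR had 108 genes higher (1.73%) and 95 lower (1.52%), 3.26% in all, at an unadjusted p under 0.05, and the lowest adjusted p was 1. Ami25 has 4 libraries numbered 41 to 56 and 2 numbered 61 to 90, and Ami50 2 and 4. Within one number range more genes had a low p: in 41 to 56, 567 were higher and 404 lower of 7035 with 0 called, and in 61 to 90, 370 were higher and 347 lower of 6524 with 5 called. The 3 genes of lowest p with 20 CPM or more were Atf7ip, Mrpl22 and Etv1. Atf7ip, a chromatin regulator, lay between 31.4 and 98.7 CPM in Ami25 (median 75.8), between 9.88 and 35.1 CPM in Ami50 (median 26.4) and between 15.4 and 53.9 CPM in vehicle (median 45.3). All but 1 of the Ami25 libraries lay above the highest Ami50 library. Its log2 fold change for Ami50 over Ami25 was -1.54 ± 0.40. Mrpl22, of the mitochondrial ribosome, had -0.33 ± 0.09, and Etv1, an ETS factor, 0.74 ± 0.23.

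Against the 12 methimazole libraries, whose compound also blocks the making of thyroid hormone, edgeR called 0 genes for amitrole, with 416 higher (6.67%) and 455 lower (7.3%) at an unadjusted p under 0.05 and a lowest adjusted p of 0.15. With the log2 total count as a term 254 were higher and 207 lower of 6236 at an unadjusted p under 0.05, and 0 were called. DESeq2 called 22 higher and 4 lower of 3212, and limma-voom 0. Only the methimazole libraries are outside the vehicle comparison. The amitrole libraries are the same in both, and the fit is shared. For genes named by their values against vehicle, these values are therefore no independent evidence. For 5 genes described above, chosen after their values were seen, the log2 fold change of amitrole over methimazole was 1.00 for Cd163, 0.79 for Gstt2, 0.73 for Stk11, 0.56 for Ndufa10 and 0.35 for Rtn3, with an edgeR adjusted p of 0.15 for each of the first 4 and of 0.2 for Rtn3. DESeq2's adjusted p was 0.0312 for Cd163 and 0.0223 for Gstt2. The log2 fold change was -0.32 for Zfp36l1 and -0.50 for Shc1 (adjusted p 0.295 and 0.716).

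The calls differed between the number ranges of the labels. Among the 14 libraries numbered 61 to 90 (2 Ami25, 4 Ami50, 2 vehicle and 6 methimazole), edgeR called 20 of 6524 genes for pooled amitrole (0.307%, 8 higher and 12 lower), 7 for Ami25 and 186 for Ami50 (2.85%, 78 higher and 108 lower). Among the 16 numbered 41 to 56 it called 0 in each. Of the 186 genes called for Ami50, 184 had a value in numbers 41 to 56, and 31 of these had the same sign there and 0 of them an unadjusted p under 0.05. Of the 20 for pooled amitrole, 11 had the same sign. Zfp36l1 was first among the 20, at 70.4 CPM in amitrole and 158.5 CPM in vehicle (log2 fold change -1.12, adjusted p 0.00693), against a log2 fold change of -0.25 in numbers 41 to 56. Sat1, the polyamine acetyltransferase, chosen after its value was seen, had 0.99 (adjusted p 0.00765) and -0.13 in numbers 41 to 56. Only 2 vehicle libraries stand behind the calls of the later numbers.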

How the data were processed

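Bulk RNA barcoding and sequencing, which reads the 3′ ends of transcripts, gave 83 libraries, 30 of them of GD21. The authors deposited 1 table of raw counts, with gene symbols as rows and libraries as columns. The submitters' processing notes name BWA 0.7.4.4 and the build rn6. The sources used here do not give the counter, the annotation, the strand setting or any collapsing of molecular barcodes. Of 17483 symbols, 15578 matched RefSeq rat gene names and 1556 a synonym. The reference is of another build, so no coordinates were used.

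All 30 GD21 libraries (5 groups of 6) were fitted together in edgeR 4.0.16 under R 4.3.3, with TMM factors, a filterByExpr minimum count of 10 by group, and robust quasi-likelihood F tests. Both doses were pooled as the mean of their group coefficients. The call was made at 0.05 after Benjamini-Hochberg adjustment over 6236 genes. Values by library are CPM of the library total, means carry the SD, and log2 fold changes the SE. Library measures were compared by exact two-sided permutation. No list was given a test. The test was tried on simulated counts with 200 changed genes.

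DESeq2 1.42.0, limma-voom (limma 3.58.1), other scalings and filters, covariates and fits without libraries were the alternatives. The members, the 28 lists and the tests were chosen with earlier results of these data known. The genes named were the 10 of lowest p in each direction with a mean of at least 20 CPM, up to 3 of lowest p per list, the 3 of lowest p per dose comparison, and a fixed panel, of which 1 gene is not reported here. DESeq2's calls were named after their values were seen. The lists for kidney epithelium (0 genes tested, and 28 counts of 6 kidney markers in the 18 libraries) and testis cells (1 tested, Inha) could not be described. Libraries of a group were compared for copies over 45 pairs, and the lowest chi-square per degree of freedom was 2.32, so none was a copy.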

Additional observations from a re-analysis of the deposited data

Results flagged for a closer look

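A library that stood apart from the other 5 of its group by Dixon's test was found in 23 of 297 sets of 6 values, where about 15 would arise by chance. In the Ami25 group the highest library had 1843 CPM of Alb (next 51.5), 15.7 CPM of Eng (next 10.1), 60.6 CPM of Gss (next 31.4) and 28.3 CPM of Pno1 (next 15.7), and the lowest had 6018 CPM of Hbb (next 11740). In Ami50 the highest library had 4394 CPM of Alb (next 696), 49.6 CPM of Atp2a2 (next 37.8), 51.9 CPM of Vps26b (next 24.8) and 0.878% of globin counts in embryonic globins (next 0.259%). In vehicle the highest library had 5319 CPM of Alb (next 1929), 49.9 CPM of Asns (next 28.1), 30.7 CPM of Ier2 (next 22.0), 419 CPM of Igf2 (next 190), 15.4 CPM of Peg12 (next 7.85), 1942 CPM of Rpl7 (next 1426) and about 1627000 total counts (next 1161000), and the lowest had 204 CPM of Nfe2l1 (next 338).

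The other 6 sets are of genes near the floor, where 1 library had a few counts. They are Dio1 (0.968 CPM), Dio3 (4.04 CPM) and Thrb (0.968 CPM) in Ami25, Hr (0.924 CPM) in Ami50, and Dio3 (1.96 CPM) and Thrb (3.93 CPM) in vehicle.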

How the results depend on the processing

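No paired analysis was possible because the groups share no replicate numbers. Counts per library limit the low genes, and the spread between libraries limits every call. The fit without vehicle replicates 41 and 42, the list counts in each alternative and the depth correlations were added after seeing the data.

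With DESeq2's size factors, no filter, a filter at 10 CPM, the older edgeR fit, limma-voom, both doses as 1 group, the compared libraries alone, thinned libraries, the total count or number range as a term, and without the libraries at 200 CPM of Alb or more, those numbered 61 to 90, the library farthest from its group or vehicle replicates 41 and 42, 0 genes were called in each comparison fitted. DESeq2 called 22 genes for amitrole, 22 for Ami50 and 26 for amitrole against methimazole. Among the libraries numbered 61 to 90 edgeR called 20 for amitrole, 7 for Ami25, 186 for Ami50, 5 for Ami50 against Ami25 and 1 against methimazole. With 1 library left out the calls ran from 0 to 0 for amitrole, for Ami25 and for Ami50 against Ami25, from 0 to 11 for Ami50 and from 0 to 19 against methimazole. The 11 came without Ami50 replicate 55, which gave 13 against methimazole, and the 19 without Ami50 replicate 56.

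The leukocyte genes higher at an unadjusted p under 0.05 numbered 16 of 28 in the main comparison (5.34% of all genes). They numbered 4 of 27 without the libraries at 200 CPM of Alb or more (3.74%) and 4 of 27 in numbers 41 to 56 (1.76%). Without vehicle replicates 41 and 42 they numbered 8 of 29 (196 of 6555 genes), and with 1 library left out 11 to 18. The ribosomal protein genes lower at that p numbered 13 of 78 in the main comparison (4.6% of all genes). In thinned libraries they numbered 13 of 78 (244 of 4696 genes) and with the total count term 0 of 78 (2.61%). They numbered 2 of 78 without the libraries at 200 CPM of Alb or more (3.95% of all genes were lower in that fit). In numbers 41 to 56 they were 1 of 78 (2.4%) and in numbers 61 to 90 0 of 78 (9.06%). Without vehicle replicates 41 and 42 they numbered 0 of 78 (205 of 6555 genes were lower), and with 1 library left out 1 to 40. Total counts in amitrole minus vehicle were -439280 without the libraries at 200 CPM of Alb or more, -362220 in numbers 41 to 56 and -195600 in numbers 61 to 90, and genes with a count -736.67, -547.25 and -689.83 in the same order, none past the test. The embryonic share of globin was -0.0605 percentage points in numbers 41 to 56 and Alb 195 CPM in numbers 61 to 90, both of the other sign.

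Of 89 genes followed, 17 turned sign in at least 1 of 16 alternatives. With the total count term the log2 fold change was -0.27 for Atf7ip, -0.0692 for Cat, -0.00499 for Cyp11a1 and -0.0866 for Cyp11b1. Without the libraries at 200 CPM of Alb or more it was 0.38 for Alb, 0.47 for H19, 0.0561 for Igf2, -0.13 for Mc2r and 0.22 for Mki67. In numbers 41 to 56 it was -0.37 for Asns, -0.27 for C1qa, -0.0729 for Cat, -0.14 for Cyp11b1, -0.0340 for Ftl1, -0.00831 for Gss, -0.13 for Hbb, -0.44 for Hbz, 0.0147 for Igf2, 0.0365 for Mki67 and -0.0498 for Mrc1. In numbers 61 to 90 it was 0.26 for Alb, -0.0832 for Atf7ip, -0.28 for Mc2r and -0.20 for Th. It was -0.0169 for Hbb with no filter, -0.0133 for Hbb without the library farthest from its group, -0.00882 for C1qa with the number range as a term, -0.0223 for Cyp11b1 without vehicle replicates 41 and 42, and, in thinned libraries, -0.20 for C1qa, -0.0131 for Hbb and -0.0227 for Th. With 1 library left out it ran from -2.92 to 0.23 for Alb, -0.0847 to 0.0964 for Hbb, -0.12 to 0.11 for Mc2r, -0.31 to 0.00271 for Mki67 and -0.0262 to 0.17 for Th. The cause was not tested.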

Other observations

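Among the other lists, the extracellular matrix genes had 0 of 34 at an unadjusted p under 0.05 in either direction with a median of -0.0656 (5.34% of all genes were higher and 4.6% lower). With the total count term 3 of 34 were lower, and within the libraries numbered 61 to 90, 13 of 35 were lower with a median of -0.492 (9.06% of all genes), against 0 of 35 in either direction and a median of 0.146 within 41 to 56. By dose their medians were -0.187 in Ami25 and 0.131 in Ami50, and for Ami50 against Ami25 31 of 34 had a positive log2 fold change, 2 were higher at an unadjusted p under 0.05 and none was called. Endothelial genes had 2 higher and 1 lower of 18 (Pecam1, 145 against 88.2 CPM, and Esam, 50.7 against 39.8 CPM, higher, and Eng, 9.68 against 14.7 CPM, lower, in amitrole and vehicle). Immediate early genes had 1 higher of 10, Jund (609 ± 259 CPM in amitrole and 321 ± 103 CPM in vehicle, log2 fold change 0.92 ± 0.29, edgeR adjusted p 0.299), while Junb and Ier2 had -0.67 ± 0.34 and -0.52 ± 0.27. Stress genes had 1 higher, Asns (0.64 ± 0.29), and 1 lower, Hsp90aa1 (-0.32 ± 0.11), of 24. Smooth muscle genes had 1 higher of 7, hypoxia and glycolysis genes 2 higher and 1 lower of 24, nuclear genes of mitochondrial respiration 3 higher and 1 lower of 84, and neutrophil genes 1 higher of 13. Cholesterol synthesis (24 genes), interferon response (16), junction (12) and Schwann cell genes (4) had none at that p.

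Over the 12 methimazole libraries, which are outside the contrast with vehicle but share its fit, the leading genes were set against log2 total counts, a look added after the values by library were seen. The 10 genes higher in amitrole had Pearson's r from -0.67 to -0.16 and Spearman's rho from -0.67 to 0.03, all 10 negative for r. The 10 lower genes had r from -0.00475 to 0.78, with 1 negative, and rho from 0.01 to 0.78. Over the 12 amitrole libraries the relation was less even: the higher genes had r from -0.71 to 0.28 with 1 positive, and the lower genes from -0.32 to 0.70 with 3 negative. Without the 2 methimazole libraries farthest from the median depth, r ran from -0.78 to 0.07 and from -0.17 to 0.74. By permutation test with 100000 resamples the lowest p over these 12 libraries was 0.00351 for r and 0.00461 for rho, and 0 of the 40 relations computed, amitrole libraries included, passed Benjamini-Hochberg adjustment at 0.05 (lowest adjusted p 0.09). The genes are not independent of each other.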
